A study of Homo sapiens with 12 samples.

Results

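Induction of M303, a shortened form of the transcription factor SOX9, was examined in LS180 cells, an established human line from a colorectal tumour whose cells make mucus proteins. The libraries were chosen by their labels: 4 of the 12 libraries of the series come from the M303 line, 2 untreated and 2 given doxycycline at 0.5 µg/ml for 24 h. A line with inducible GFP and a line with inducible wild-type SOX9, each with 2 libraries in each state, served for comparison. All 3 lines are LS180 derivatives, and each line with doxycycline was set against the same line without it. Per the labels, both SOX9 forms carry a V5 tag. Whether a line is 1 clone or a pool is not given in the sources used here. Each construct sits in its own line, so a construct and its line cannot be told apart. Nothing states that duplicates came from separate cultures, so every p-value reflects the scatter of these libraries alone, and that scatter may be technical.

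SOX9 binds DNA through an HMG box, a domain that bends the double helix, and activates transcription mainly through its C-terminal part. In the intestine it marks crypt stem and progenitor cells and is needed for Paneth cells, the antimicrobial secretory cells of the small intestinal crypt. Goblet cells, the other abundant secretory lineage, make mucus under the transcription factors ATOH1 and SPDEF. The question addressed here is how the transcriptome responds to the shortened form, next to wild-type SOX9 induced in the same way.

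The series describes M303 only as truncated, and the labels say neither what the number refers to nor where the form ends. To show what lies at that number in the reference gene, codons 293 to 313 of SOX9 were read from the GENCODE v29 transcript ENST00000245479 on GRCh38, chr17:72123734-72123796, plus strand. This stretch lies in exon 3 of 3, inside the coding sequence. The capitals mark the codon whose number is that of the name M303:

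SOX9 codons 293 to 313: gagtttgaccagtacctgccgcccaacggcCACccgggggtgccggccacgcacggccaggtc

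The reference coding sequence has 509 codons, of which 206 follow the one in capitals. The capital codon is CAC, not a start codon. An in-frame ATG stands at codon 218 and the following one at codon 336. The sequence of the construct itself was not analysed here, so none of this says which part of SOX9 the induced form holds.

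The M303 libraries held 33448241 and 37426903 counts without doxycycline and 41893421 and 35029487 with it. Over all 12 libraries the totals ranged from 31012775 to 48529770. All 6 epithelial genes checked (EPCAM, KRT8, KRT18, KRT19, CDH1 and VIL1) were above 1 CPM (counts scaled to a common library size). In this paragraph CPM are raw counts over the library total, and elsewhere they are also scaled with TMM factors. Their summed level was 10132 to 11003 CPM without and 10382 to 11088 CPM with doxycycline in the M303 line. Summed fibroblast markers stood at 31.5 to 32.6 CPM without and 31.1 to 33.7 CPM with doxycycline. Only 4 of those 14 genes reached 1 CPM, led by COL5A1 with 24.1 CPM, and PDGFRA and POSTN had 0 counts. Blood and immune markers other than LYZ summed to at most 4.84 CPM and endothelial markers to at most 8.19 CPM, and PTPRC, CD3D, CD3E, TIE1, EMCN and PLVAP had 0 counts.

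SOX9 itself was the gene that rose on M303 induction. Its count stood at 399 and 367 CPM in the 2 libraries without doxycycline and at 818 and 867 CPM in the 2 with it. The groups lay far apart, and each induced library held more than any uninduced library of the 3 lines. The mean went from 383 ± 22.7 to 843 ± 34.4 CPM (SD, n = 2 each), a log2 fold change of 1.14 (SE 0.07, 95% CI 0.99 to 1.29, edgeR quasi-likelihood test with Benjamini-Hochberg adjustment, adjusted p = 2.84e-08). By CPM the gene moved from ranks 337 and 388 to ranks 112 and 109 among the 18219 genes tested. The gene (ENSG00000125398) lies on the plus strand of GRCh38 at chr17:72121020-72126416.

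**Figure D1:**
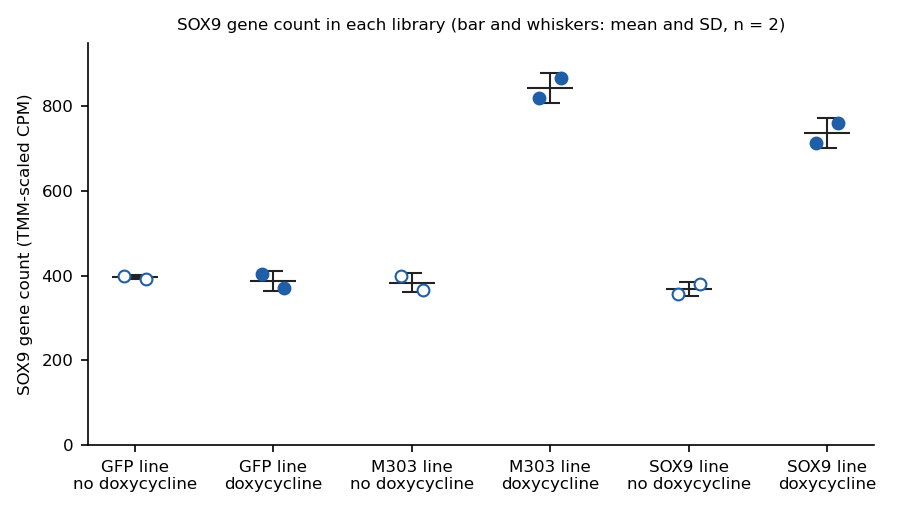
SOX9 gene count in each of the 12 libraries, in CPM on a linear axis from 0; open points are libraries without doxycycline, filled points those with it, and the bars and whiskers give the mean and SD of 2 libraries. The M303 libraries with doxycycline (818 and 867 CPM) stand above those without it (399 and 367 CPM), while the GFP libraries stay between 371 and 405 CPM.

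In the GFP line the SOX9 count was 399 and 392 CPM without and 405 and 371 CPM with doxycycline, so these groups overlapped. The GFP transcript itself was not analysed here. The difference between M303 and GFP induction was 1.17 on the log2 scale (95% CI 0.95 to 1.38, edgeR adjusted p = 7.92e-06). In the wild-type line the same gene went from 357 and 381 to 712 and 761 CPM. The rise with M303 exceeded the rise with wild-type SOX9 by 0.14 (95% CI -0.07 to 0.36, edgeR adjusted p = 0.891), an interval that leaves room for up to 0.36 more and 0.07 less. The count pools endogenous and construct reads over the whole gene, so a shorter construct gives fewer reads per transcript. Equal counts are therefore not equal numbers of transcripts, and protein was not analysed here.

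Beyond SOX9, no gene passed the edgeR test on M303 induction. The count of 1 is 0.00549% of the 18219 genes tested by edgeR, 662 genes reached an unadjusted p under 0.05, and the calls of DESeq2 were 2 genes, SOX9 and SMOC2. GFP induction gave 0 calls, 580 genes at an unadjusted p under 0.05 and 2 calls by DESeq2. With no true change, evenly spread p-values would put more genes under 0.05 than the 662 or the 580. In the difference between M303 and GFP induction edgeR again called 1 gene (0.00549%), SOX9, and 717 genes had an unadjusted p under 0.05. Without replicate 1 of uninduced GFP this difference held 12 calls and GFP induction 9, and without either induced GFP library SMOC2 joined SOX9 on M303 induction. The width of the intervals gives the precision, which rests on the scatter of these libraries alone. Taken were the 12025 genes averaging 1 log2 CPM or more over all 12 libraries. The 95% interval of the M303 log2 fold change lay within a 2-fold change for 11628 (96.7%) and within a 1.5-fold change for 9860 (82.0%). With wild-type SOX9, where 541 genes were called, these shares were 94.3% and 76.9%. Such shares are thus also reached where many genes respond.

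Below that threshold the genes were ranked by how cleanly the 2 states separated. A gene without overlap has both induced libraries above, or both below, the 2 uninduced ones. There were 3107 such genes higher (17.1%) and 3056 lower (16.8%) in the M303 line, against 2468 (13.5%) and 2517 (13.8%) in the GFP line. With 2 libraries against 2, random order alone separates a share of genes close to that of the M303 line. These shares by themselves therefore show no response to M303. Genes without overlap that also had an unadjusted p under 0.05 in the M303 line numbered 348 higher (1.91%) and 298 lower (1.64%). The genes named next are the 12 higher and 12 lower with the smallest p among those without overlap averaging 1 log2 CPM or more. That average was taken over all 12 libraries, so high values in the induced wild-type libraries can bring a gene into the ranking. The 24 genes were picked by these very values, so the values describe them and test nothing. No edgeR adjusted p among the 24 was below 0.177.

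The 12 ranked higher were headed by SMOC2 and APCDD1, both also raised by wild-type SOX9. SMOC2, a secreted calcium-binding matrix protein that marks intestinal stem cells, stood at 42.2 and 41.0 CPM without doxycycline and at 60.0 and 58.0 CPM with it (log2 fold change 0.50, SE 0.09; edgeR adjusted p = 0.177). APCDD1, a membrane inhibitor of WNT signalling and itself a WNT target, stood at 27.4 and 26.9 against 37.0 and 40.8 CPM, a log2 fold change of 0.52 (SE 0.11). CD109, a cell-surface co-receptor for TGF-beta, had 31.4 and 37.4 against 47.8 and 43.9 CPM. In each of these genes the lower induced library exceeded the higher uninduced one. VCAN, which encodes the matrix proteoglycan versican, had 18.9 and 19.4 against 25.7 and 28.7 CPM. NT5E, the ectoenzyme CD73 that makes adenosine, had 70.5 and 72.8 against 88.5 and 92.4 CPM. PRSS23, a secreted serine protease, had 112 and 103 against 134 and 129 CPM. The log2 fold changes of the last 4 named were 0.41, 0.51, 0.34 and 0.29.

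EDAR, the receptor for ectodysplasin, was the ranked gene with the highest fold change, from a low level: 0.90 and 1.33 CPM without and 3.12 and 2.59 CPM with the drug (log2 fold change 1.35, SE 0.36). OSR1, a zinc-finger transcription factor, was similarly low, at 1.90 and 2.61 against 3.73 and 4.97 CPM. PLOD3, a collagen lysyl hydroxylase, had 162 and 153 against 191 and 203 CPM. The other ranked genes were the membrane protein CNNM1, the efflux pump ABCC4 and the long noncoding RNA UCA1, with log2 fold changes of 0.39, 0.42 and 0.36. ABCC4 had 0.64 on GFP induction, more than with M303. Among genes without overlap averaging 1 log2 CPM or more, the 4 highest fold changes with an unadjusted p under 0.05 were those of DEFA5 (1.49), EDAR, the potassium channel subunit KCNAB1 (1.18) and ACCS (1.03), and none exceeded 4.0 CPM in any M303 library. DEFA5, a Paneth cell defensin, stood at 0.90 and 0.64 against 2.41 and 1.90 CPM. It met the limit on level through the induced wild-type libraries, where it had 34.2 and 36.9 CPM.

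The 12 ranked lower held 3 members of the goblet cell list, AGR2, REG4 and CREB3L1. AGR2, a protein disulfide isomerase of the endoplasmic reticulum that mucins need, stood at 1149 and 1170 CPM without doxycycline and at 920 and 968 CPM with it (log2 fold change -0.30, SE 0.07; edgeR adjusted p = 0.832). REG4, a secreted lectin, stood at 298 and 284 against 238 and 227 CPM, a log2 fold change of -0.32 (SE 0.08). CREB3L1, a membrane-bound transcription factor of secretory cells, had 98.5 and 92.4 against 75.3 and 79.0 CPM. These are abundant genes with small differences and tight duplicates. NEURL1, a ubiquitin ligase that acts on Notch ligands, had 18.3 and 18.5 against 12.4 and 13.2 CPM. BIRC3, an inhibitor of apoptosis induced by NF-kB, had 19.0 and 14.8 against 11.3 and 11.6 CPM. GPX2, the gastrointestinal glutathione peroxidase, had 259 and 235 against 199 and 198 CPM. The induced libraries of each of these pairs lay below both uninduced ones.

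LYZ, the antimicrobial lysozyme of Paneth cells, was also ranked lower: it stood at 46.5 and 52.3 CPM without doxycycline and at 39.7 and 39.3 CPM with it (log2 fold change -0.32, SE 0.09; edgeR adjusted p = 1.00). Wild-type SOX9 raised the same gene. The 12 also held COX19, a copper-handling assembly factor of cytochrome oxidase (-0.38), UQCC3, an assembly factor of complex III (-0.49), and MT-ND6, a mitochondrially encoded subunit of complex I (159 and 179 against 131 and 130 CPM, -0.37), which had -0.21 with GFP. The noncoding RNA LINC00261 (-0.55) and FAM83E (-0.58) completed the 12. Under the same limits on overlap and level, the 4 lowest fold changes had an unadjusted p under 0.05. They were those of TRIM10 (-0.93), the pseudogene KRT8P10 (-0.84), LINC02361 (-0.82) and NXPE1 (-0.81), and all had at most 3.65 CPM. Multi-mapping reads were not counted, so reads that fit both KRT8P10 and its parent gene are missing from its count. Leaving out 1 M303 library moved TRIM10 to as little as -0.58 (uninduced replicate 2), KRT8P10 to -0.54 and NXPE1 to -0.51 (both induced replicate 1), LINC00261 to -0.34 and BIRC3 from -0.56 to -0.37 (both uninduced replicate 1). Exons of 8 of the 24 ranked genes overlap exons of a gene on the opposite strand. The counting did not use strand, so reads in the shared stretches could not be assigned by strand. This holds for CD109, VCAN, PLOD3, PRSS23, UCA1, LYZ, BIRC3 and UQCC3.

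**Figure D2:**
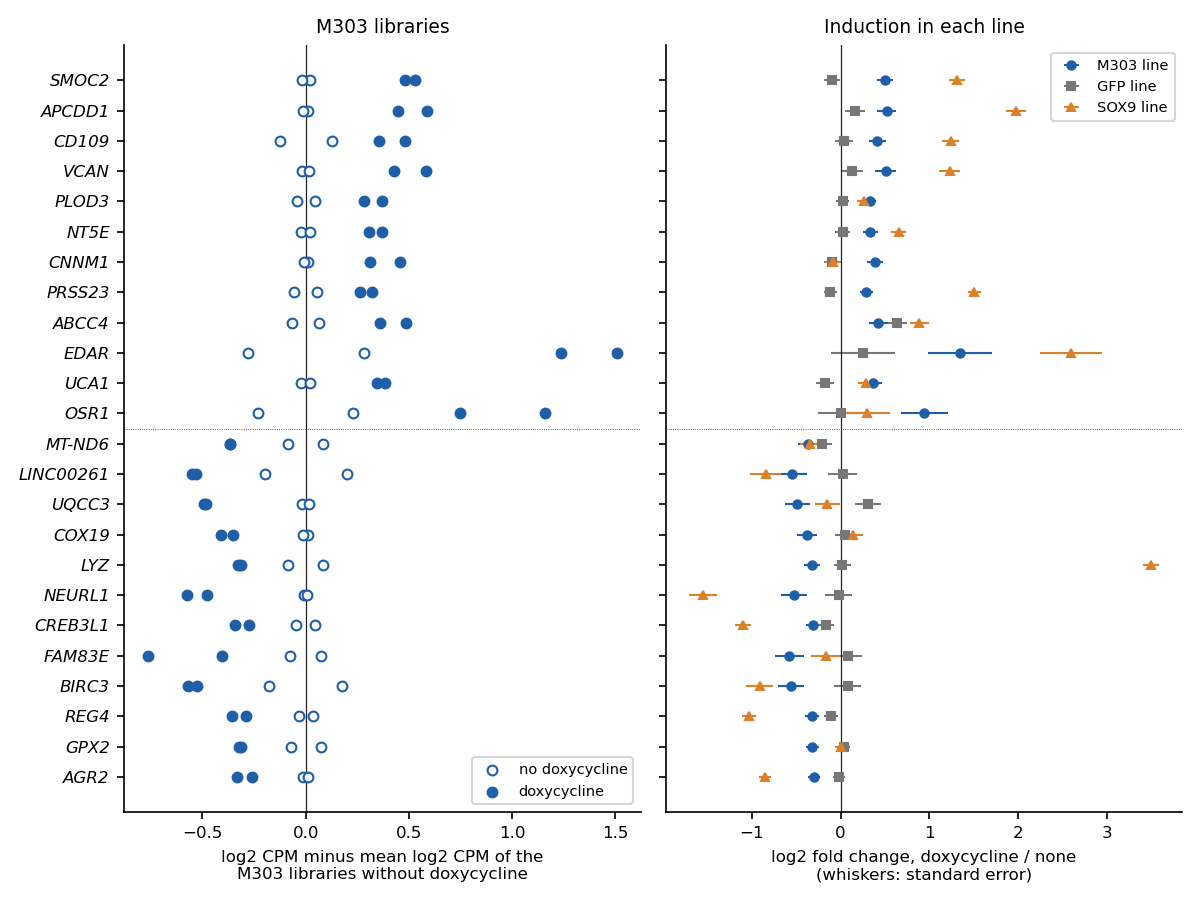
The 24 ranked genes. Left, each M303 library as log2 CPM minus the mean log2 CPM of the uninduced libraries (open, without doxycycline; filled, with it); right, the fitted log2 fold change with its standard error in the M303, GFP and wild-type SOX9 lines. Filled and open points do not overlap because the genes were chosen so; the orange triangles lie on the same side of 0 as the M303 values for 20 of 24 genes, and LYZ, at 3.50 with wild-type SOX9, lies on the other side.

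Promoters of 4 ranked genes are printed because the genes head the ranking (SMOC2 and AGR2) or hold a 6-base sequence known to be bound by SOX proteins (CD109 and REG4). Each is the 250 bases before the RefSeq start site, on the gene's strand (GRCh38.p14). ACAATG and ACAAAG were searched on both strands, where they read CATTGT and CTTTGT in reverse, and a match stands in capitals. The windows are chr6:168440934-168441183 (plus strand) for SMOC2, chr6:73695953-73696202 (plus) for CD109, chr7:16805000-16805249 (minus) for AGR2 and chr1:119811461-119811710 (minus) for REG4.

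SMOC2: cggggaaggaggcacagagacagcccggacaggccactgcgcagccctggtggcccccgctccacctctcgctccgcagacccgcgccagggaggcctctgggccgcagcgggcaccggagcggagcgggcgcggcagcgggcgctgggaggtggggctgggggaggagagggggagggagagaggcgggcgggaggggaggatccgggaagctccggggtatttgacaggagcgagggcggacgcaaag

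CD109: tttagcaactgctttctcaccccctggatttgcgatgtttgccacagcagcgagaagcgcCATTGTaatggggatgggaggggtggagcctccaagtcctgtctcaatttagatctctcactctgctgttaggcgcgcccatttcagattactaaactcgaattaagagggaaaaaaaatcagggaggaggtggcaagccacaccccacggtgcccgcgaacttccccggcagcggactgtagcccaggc

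AGR2: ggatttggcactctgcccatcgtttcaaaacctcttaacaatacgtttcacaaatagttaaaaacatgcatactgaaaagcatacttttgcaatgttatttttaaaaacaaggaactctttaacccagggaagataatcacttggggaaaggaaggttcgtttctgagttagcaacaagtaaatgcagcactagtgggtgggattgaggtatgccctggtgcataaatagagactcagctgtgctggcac

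REG4: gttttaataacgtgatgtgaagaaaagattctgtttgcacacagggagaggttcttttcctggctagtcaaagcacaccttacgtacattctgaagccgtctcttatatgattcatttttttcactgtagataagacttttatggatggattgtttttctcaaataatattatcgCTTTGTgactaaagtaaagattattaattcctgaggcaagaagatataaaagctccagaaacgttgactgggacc

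CD109 had a match 184 bases before its start and REG4 a match 69 bases before its start, whereas SMOC2 and AGR2 had none in this window. Of the ranked genes, 9 of 12 higher and 9 of 12 lower were found in the RefSeq table, and 1 (11.1%) and 3 (33.3%) of these had a match. The share was 13.8% of the 11950 tested genes in the table and 21.4% of all 27305 promoters in it. A match describes these letters only. The matches in the lower set were in REG4, GPX2 and LINC00261.

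The ranked genes mostly moved the same way when wild-type SOX9 was induced. The 3 inductions share no library, so each has its own controls, although all share 1 estimate of the spread. Of the 12 higher, 8 were called higher by edgeR with wild-type SOX9 (background 1.81% of genes tested) and 0 were called lower. Of the 12 lower, 6 were called lower (background 1.16%) and 1, LYZ, was called higher. The medians of the 12 higher genes were 0.42 with M303, 1.06 with wild-type SOX9 and 0.02 with GFP. The medians of the 12 lower genes were -0.37, -0.59 and 0.02. All genes without overlap, with an unadjusted p under 0.05 and an average of 1 log2 CPM or more were then taken. Of these, 43 of 206 higher (20.9%) and 50 of 203 lower (24.6%) were called the same way with wild-type SOX9. The opposite way were 0 and 1. The 43 include EDAR and DEFA5, whose average rests on the induced wild-type libraries.

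Some ranked genes had smaller or opposite values in the wild-type line. CNNM1 had 0.39 with M303 and -0.08 with wild-type SOX9, a difference of 0.47 (95% CI 0.19 to 0.75, edgeR adjusted p = 0.22). GPX2 had -0.32 and 0.01, a difference of -0.33 (95% CI -0.55 to -0.10, edgeR adjusted p = 0.376). OSR1, higher without overlap in both lines, had 0.94 and 0.30, a difference of 0.64 (95% CI -0.14 to 1.42, edgeR adjusted p = 0.803). None of these differences passed the test, so the data do not show that the genes respond to M303 alone. PLOD3 had 0.33 and 0.27, a difference of 0.06 (95% CI -0.17 to 0.29), and UCA1 0.36 and 0.29, a difference of 0.08 (95% CI -0.21 to 0.36).

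The reverse view takes the genes that wild-type SOX9 changed and asks where they stood with M303. Wild-type SOX9 raised 330 genes and lowered 211 by edgeR, and SOX9 itself was left out of the former. Of the 329 others that rose, 259 (78.7%) had a positive log2 fold change with M303 and 159 (48.3%) with GFP. Of the 211 that fell, 179 (84.8%) had a negative one with M303 and 142 (67.3%) with GFP. The sizes were small: a median of 0.09 with M303 against 0.59 with wild-type SOX9 and -0.01 with GFP for the first set, and -0.10 against -0.57 and -0.04 for the second. Per gene, the M303 log2 fold change was a median 0.163 of the wild-type one among genes that rose and 0.200 of it among genes that fell. The wild-type values also picked these genes, which can enlarge those values and so lower the share.

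Both induced M303 libraries showed this. Averaged over the 310 raised genes averaging 1 log2 CPM or more, they stood 0.12 and 0.10 above the uninduced mean on the log2 scale, and the GFP libraries with doxycycline 0.01 and 0.01 above theirs. Averaged over the 207 lowered genes, the M303 libraries stood at -0.15 and -0.12 and the GFP libraries at -0.03 and -0.06. Without overlap, 146 of the 329 raised genes (44.4%) were higher and 15 (4.56%) lower in the M303 line, against 42 and 47 in the GFP line. Of the 211 lowered genes 111 (52.6%) were lower and 12 (5.69%) higher, against 46 and 12 with GFP. Over all genes tested 17.1% were higher and 16.8% lower with M303, and 13.5% and 13.8% with GFP. Across the 517 genes of both sets, Pearson's r between M303 and wild-type log2 fold changes was 0.60, and 0.29 between GFP and wild type. Over all 12024 genes averaging 1 log2 CPM or more, SOX9 left out, r was 0.25 and 0.06. These are descriptions across genes, which are not independent replicates. The set depends on the wild-type libraries: the edgeR count of 541 calls became 301 without replicate 2 of uninduced SOX9 and 270 or 231 without replicate 1 or 2 of induced SOX9. The M303 median of the lowered genes then became -0.18, -0.16 and -0.17, and -0.05 without replicate 1 of uninduced SOX9.

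**Figure D3:**
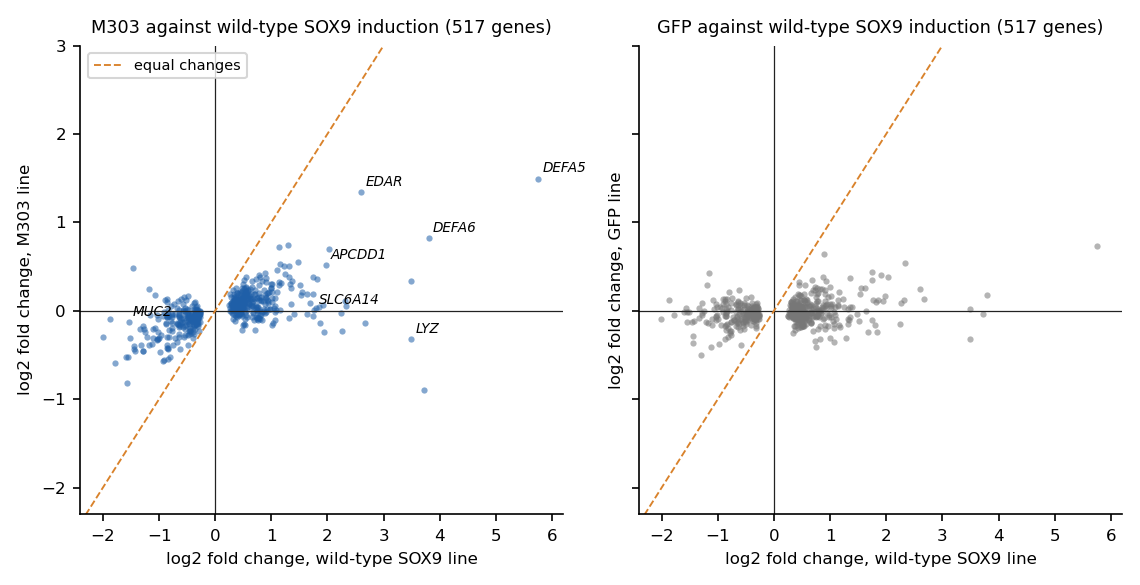
Genes called on wild-type SOX9 induction averaging 1 log2 CPM or more (517 genes, SOX9 left out). The x axis is the log2 fold change in the wild-type line and the y axis the log2 fold change in the M303 line (left) or the GFP line (right); the dashed line marks equal changes. M303 values slope the same way but far below that line (r = 0.60), GFP values less so (r = 0.29), and LYZ falls below 0 with M303.

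The difference from wild-type SOX9 was itself tested. M303 and wild-type induction differed for 89 genes by edgeR, 24 with a higher log2 fold change under M303 (0.132%) and 65 with a lower one (0.357%), and 57 without replicate 2 of induced SOX9. All 65 were among the genes that wild-type SOX9 raised and all 24 among those it lowered. The 65 had a median of 0.04 with M303, 1.14 with wild-type SOX9 and 0.01 with GFP, and the 24 a median of -0.15, -1.03 and -0.03. The genes were picked by the difference between M303 and wild type, so these medians describe them and test nothing. For the other genes of the response the individual difference did not pass the test.

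LYZ had the smallest adjusted p of the 89. It went from 56.7 and 46.9 to 590 and 579 CPM with wild-type SOX9, a log2 fold change of 3.50, and the difference, M303 minus wild type, was -3.82 (95% CI -4.09 to -3.55, edgeR adjusted p = 1.94e-13). SLC6A14, an intestinal amino acid transporter, stood at 21.8 and 22 against 23.4 and 20.5 CPM with M303 and at 21.6 and 17.4 against 69.4 and 63.2 CPM with wild-type SOX9. NEDD9, a focal adhesion scaffold, had 0.03 with M303 and 1.79 with wild type. HMGCS1, the synthase of the cholesterol pathway, had -0.14 and 1.03. In these genes a clear wild-type rise had no counterpart in the M303 line. Among genes that fell with wild-type SOX9, MUC2, the main secreted mucin, stood at 60.5 and 70.9 against 53.1 and 67.4 CPM with M303, groups that overlapped, and the difference was 1.42 (95% CI 1.01 to 1.82, edgeR adjusted p = 8.16e-04). GUCY2C, the receptor for guanylin, had -0.20 with M303 and -1.27 with wild type. GREM1, a BMP antagonist, had -0.06 and -0.82, and the transporter SLC6A20 -0.04 and -0.84.

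By name, the 65 genes included secreted proteins (LYZ, DEFA6, PLA2G2A, RNASE1, SOD3, TCN1, KLK6, AZGP1, SMOC1, SMOC2, IGFBP3, PRSS23 and OLFM4) and the channels and transporters SLC6A14, KCNN4 and KCNJ2. Members of the WNT target list among them were APCDD1, NKD1 and VSNL1, and transcription factors RUNX1 and FOXQ1. Signalling genes were NTRK2, TGFBR3, TNFRSF11A, NEDD9, PIK3AP1, PLCB4, RASGRF1, DUSP10, RASSF6, WWC2 and CDC42EP3. Surface, junction and keratin genes were CD24, CD74, CD109, CLDN1, TM4SF1, MUC13, MELTF and KRT6B. Others were HMGCS1, CYB5R2, PLEKHS1, IVNS1ABP, IFI6, PLEKHB1, UTP20, RELL1, PPFIBP2, CEMIP2, RCN1, RNF128, FILIP1L, SERTAD4, PLAAT3, CMTM7, GMPR, HDAC2-AS2, DYNLT3, COL9A3, A4GALT, REPS2, CRYZL2P and ENSG00000274979. The 24 genes included the goblet genes MUC2, REG4, ATOH1, CREB3L1, AGR2 and SPDEF, the absorptive cell genes SLC6A20, GUCY2C, FABP2, ANKS4B, LGALS4 and LGALS3, and GREM1, DDC, IL33, RAP1GAP, ETV4, ATP2A3, KLK3, MYH13, NEURL1, LINC02672 and B3GALT5. With M303, 22 of the 65 were higher and 6 lower without overlap, and of the 24, 13 were lower and 1, B3GALT5, higher. Over all genes tested 17.1% were higher and 16.8% lower. Exons of 26 of the 89 overlap a gene on the opposite strand. Among them is HDAC2-AS2, whose reads in stretches shared with HDAC2 could not be assigned by strand.

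Among fixed genes of stem, progenitor and proliferating cells, SMOC2 was described above, and most others had small values with M303. LGR5, the stem cell receptor for R-spondin, had -0.09 (95% CI -0.27 to 0.09), ASCL2, a stem cell transcription factor, -0.02 (95% CI -0.20 to 0.16), and OLFM4 0.04 (95% CI -0.14 to 0.22). The WNT feedback gene AXIN2 had 0.04, MYC 0.02 and SOX4 0.01. MKI67, the Ki-67 proliferation antigen, stood at 158 and 160 against 171 and 206 CPM, without overlap (log2 fold change 0.25, 95% CI -0.11 to 0.60; 0.11 without replicate 2 of induced M303), and CDKN1A, the cell cycle inhibitor p21, had -0.12. Among differentiation genes, KRT20, a keratin of mature colonocytes, stood at 10.2 and 12.6 against 8.63 and 7.30 CPM, a log2 fold change of -0.52 (95% CI -0.93 to -0.11). ATOH1 had -0.24 (-0.13 without replicate 1 of induced M303) and SPDEF -0.30 (-0.15 without replicate 1 of uninduced M303), and CDX2, the intestinal identity factor, -0.05. DEFA6, the second Paneth cell defensin, stood at 1.26 and 2.00 against 4.07 and 1.67 CPM, so 1 induced library carried its higher mean (log2 fold change 0.82, and 0.02 without it). PROM1 was too low to test, with at most 10 counts in an M303 library.

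Among lists with at least 9 tested members, goblet cell genes had the largest share without overlap. Of 34 goblet genes tested (of 35 listed), 18 were lower and 1 higher without overlap, or 52.9% lower against 16.8% of all genes, and 12 had an unadjusted p under 0.05. None was called by edgeR with all 12 libraries and the filter on low counts. TFF3 was called by edgeR in a fit of the M303 line alone (adjusted p = 0.00898) and, with SPINK4, in the fit without the filter (adjusted p = 0.00179 and 0.0333). The median log2 fold change was -0.22 with M303, -0.04 with GFP and -0.79 with wild-type SOX9, where 20 were called lower. In such bulk samples fewer cells of a type and less RNA per cell cannot be told apart. The mean over the 30 better expressed members stood at -0.24 and -0.15 in the induced M303 libraries, against 0.01 and -0.01 in the uninduced ones. Without replicate 1 of uninduced M303 the list median was -0.13. TFF3, the trefoil peptide of goblet cells, stood at 219 and 232 against 163 and 153 CPM, a log2 fold change of -0.52. SPINK4, a secreted protease inhibitor, stood at 61.2 and 68.1 against 44.1 and 50.1 CPM (-0.46). ZG16, a lectin of mucin granules, had 13.2 and 15.0 against 9.03 and 9.72 CPM (-0.59). Trefoil peptide TFF1 had -0.43, AGR3 -0.57 and the sialyltransferase ST6GALNAC1 -0.22. These products were lower in both induced libraries, whereas MUC2 overlapped. With GFP, 3 of the 34 were lower and 2 higher without overlap, but in the difference between M303 and GFP no goblet gene was called by edgeR.

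Stem cell, WNT and YAP target genes leaned the other way, by less. Of 18 stem cell genes tested 7 were higher and 2 lower without overlap (median 0.05), led by SMOC2 and LRIG1, a brake on growth factor receptors (0.22). Over all genes tested 17.1% were higher and 16.8% lower. Of 22 WNT targets 9 (40.9%) were higher and 1 lower (median 0.06), led by APCDD1, the feedback inhibitor NKD1 (91.0 and 95.5 against 109 and 121 CPM, 0.30) and the transcription factor PROX1 (12.7 and 11.7 against 15.6 and 16.2 CPM, 0.38). GFP induction gave 4 higher and 1 lower WNT targets, and PROX1 had 0.29 there. Of 23 YAP targets 10 were higher and 1 lower (median 0.08), but 6 were higher with GFP as well (median 0.07). JAG1, a Notch ligand, stood at 246 and 253 against 292 and 300 CPM (0.25), within a Notch list that split evenly, 7 higher and 7 lower of 35, near those shares. By the edgeR test with the filter on low counts no gene of these lists was called. SMOC2 was called by DESeq2 (adjusted p = 0.00659) and, with APCDD1, by edgeR without the filter (adjusted p = 0.00278 and 0.00701).

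Other cell lineage lists mixed, set against 17.1% higher and 16.8% lower over all genes. Of 31 enterocyte genes tested 13 were lower and 4 higher (median -0.07), with KRT20 low and the glucose transporter SLC5A1 high (20.6 and 22.7 against 28.1 and 25.3 CPM). GFP had 7 lower and 1 higher, with a median of -0.06. Of 9 Paneth cell genes tested (of 14 listed) 3 were higher and 2 lower with M303, where wild-type SOX9 raised 6. Of 8 enteroendocrine genes tested (of 25 listed) 5 were higher and 1 lower, with a median of 0.73 with M303, 0.04 with GFP and -0.26 with wild-type SOX9, and 0.41 without replicate 2 of induced M303. Of these 8 only ISL1, an endocrine transcription factor, averaged 1 log2 CPM or more: it stood at 6.32 and 5.62 against 7.19 and 7.73 CPM and had 0.32 with M303 and 0.31 with GFP. NEUROG3, which starts endocrine differentiation, had 0.62 with M303 and -0.24 with GFP. None of the 8 had an unadjusted p under 0.05. Mucin-type glycosylation genes had 12 lower and 2 higher of 35 (median -0.05). Among the lower was GALNT3, which starts mucin glycans (71.2 and 74.5 against 65.0 and 59.1 CPM). With GFP this list had 4 lower and 2 higher (median -0.03). Folding genes of the endoplasmic reticulum had 11 lower and 3 higher of 45 (median -0.04), and with GFP 4 lower and 5 higher (median -0.02). Cell cycle lists stayed near the background, with 6 higher and 3 lower of 40 G1/S genes and 6 and 6 of 40 G2/M genes, and p53 targets had 4 and 4 of 27.

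**Figure D4:**
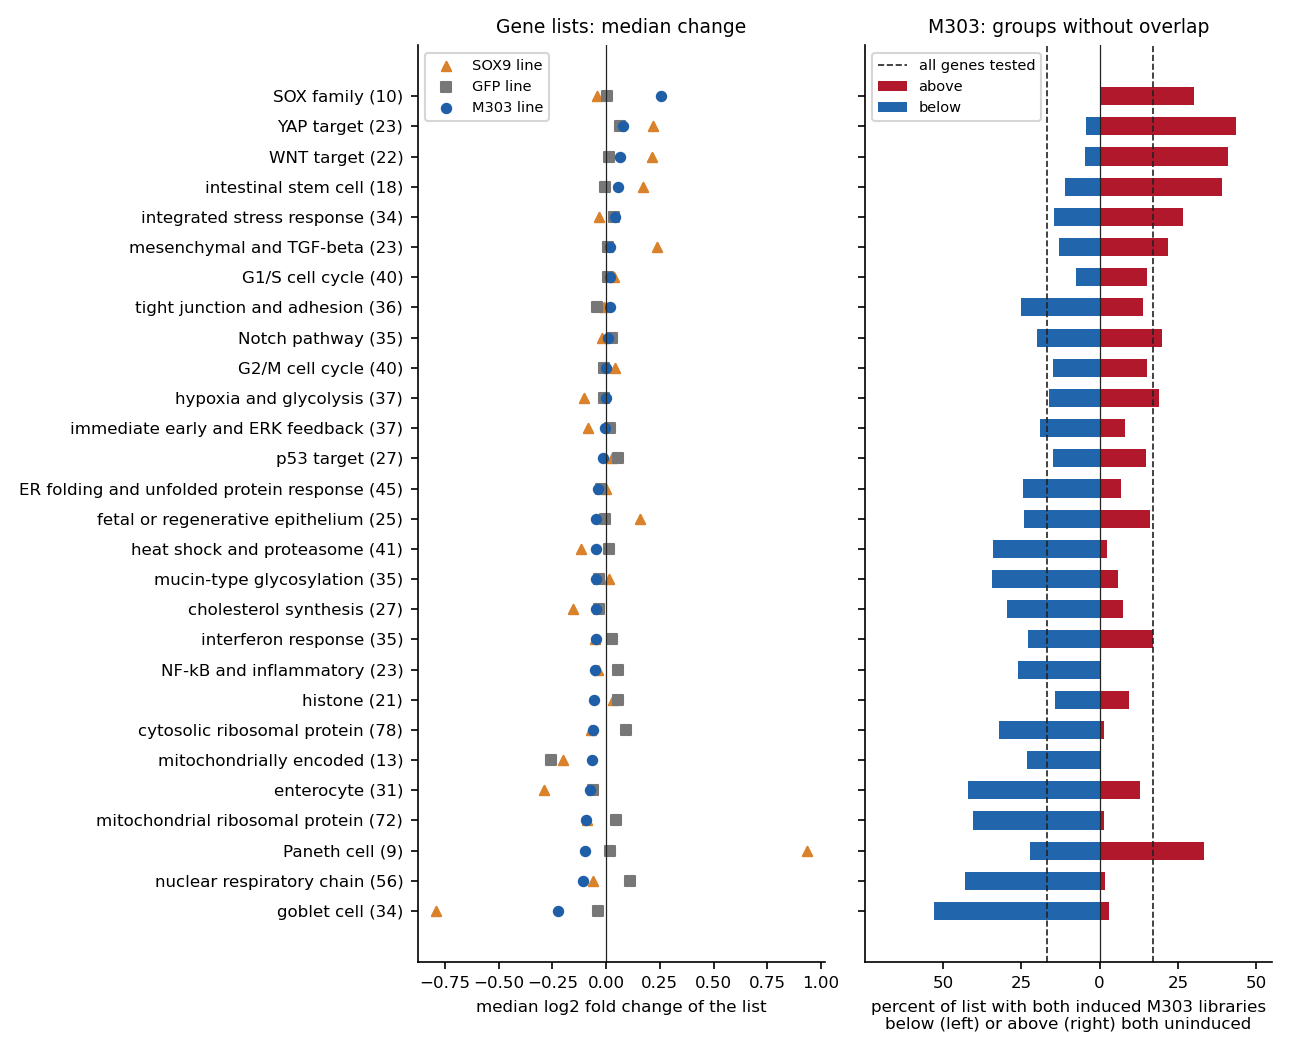
Gene lists with at least 9 tested members (number in brackets), ordered by their median log2 fold change with M303. Left, that median in the M303, GFP and wild-type SOX9 lines; right, the percent of members whose induced M303 libraries both lay below (blue, leftward) or above (red, rightward) both uninduced ones, with dashed lines at the values over all genes tested (16.8% and 17.1%). The goblet list is lowest with M303 (-0.22). The ribosomal and respiratory lists have many small lower values, with wild-type medians on the same side of 0 and GFP medians on the other.

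Ribosomal and respiratory genes were slightly lower in many members at once. Without overlap 24 of 56 nuclear-encoded respiratory chain genes, 25 of 78 cytosolic ribosomal protein genes and 29 of 72 mitochondrial ribosomal protein genes were lower with M303, and 1 of each list was higher. These are 42.9%, 32.1% and 40.3%, against 16.8% of all genes tested. The medians were -0.11, -0.06 and -0.09. MRPL13, a mitochondrial ribosomal protein, stood at 58.7 and 61.2 against 53.7 and 50.7 CPM. The respiratory list mean was -0.06 and 0.06 in the uninduced M303 libraries and -0.08 and -0.16 in the induced ones. The cytosolic ribosomal list had -0.03 and 0.03 against -0.10 and -0.06, and the mitochondrial ribosomal list -0.02 and 0.02 against -0.09 and -0.08. The induced M303 libraries thus lay below both uninduced ones for each list. The GFP duplicates lay further apart: there the respiratory list mean was 0.13 and -0.13 without and -0.04 and 0.30 with doxycycline. Lower members were not particular to M303. With wild-type SOX9 17, 34 and 28 members of the 3 lists were lower without overlap, against 3921 of 18219 genes tested. The wild-type medians were -0.06, -0.07 and -0.09. The respiratory list mean in that line was 0.10 and -0.10 without and -0.03 and -0.08 with doxycycline, so those groups overlapped. Mitochondrially encoded genes had a median of -0.07 with M303 and -0.26 with GFP, where 11 of 13 were lower without overlap.

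Gene length moved with these values. In the shortest length quartile of genes averaging 1 log2 CPM or more (68 to 3273 exonic bases) 25.5% were lower and 9.64% higher without overlap in the M303 line. In the longest quartile (7735 to 205012 bases) 11.1% were lower and 25.8% higher. Median offsets of the induced M303 libraries were -0.04 and -0.04 for short genes and 0.03 and 0.04 for long ones. The wild-type line had a similar trend. From the shortest to the longest quartile the median log2 fold change went from -0.05 to 0.03 with M303 and from -0.04 to 0.03 with wild-type SOX9. With GFP it went from 0.03 to -0.02. The uninduced M303 duplicates stood at -0.0039 and 0.0039 for short genes, but the uninduced GFP duplicates stood at 0.06 and -0.06, a spread wider than the M303 offset. Median lengths were 2663 bases for respiratory, 2918.5 for cytosolic ribosomal, 2571.5 for mitochondrial ribosomal and 2833 for goblet genes, against 4191 for all genes tested. Median lengths of the other lists and of the wild-type response genes were not compared. The part of length in the list results was not tested, nor its part in the shared direction of M303 and wild-type values.

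**Figure D5:**
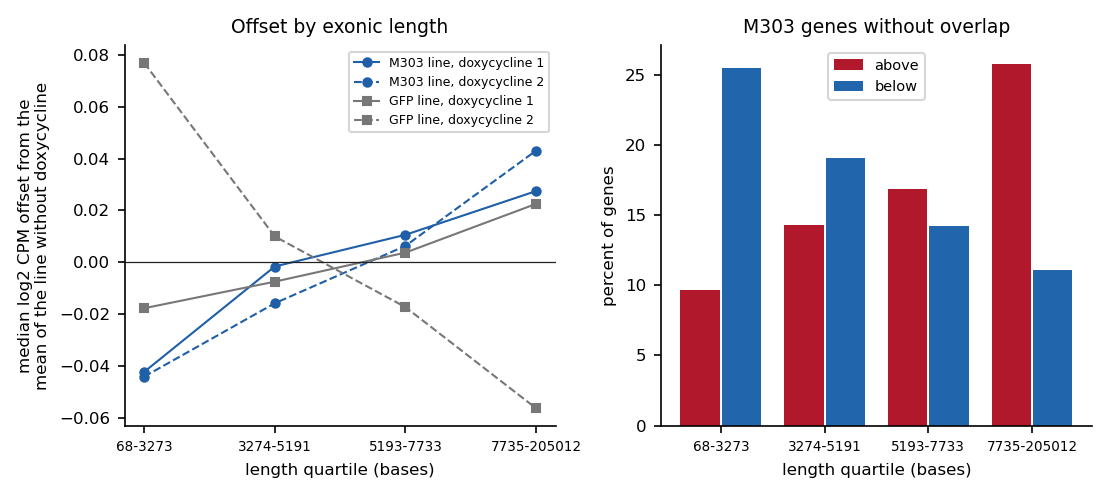
Left, median log2 CPM offset from the uninduced mean of the same line for each induced M303 and GFP library, by quartile of exonic gene length; right, percent of genes in each quartile whose induced M303 libraries both lay above (red) or below (blue) both uninduced ones. Both M303 libraries go from -0.04 for the shortest genes to 0.03 and 0.04 for the longest, and the 2 GFP libraries go in opposite directions. The wild-type line is not drawn.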

How the data were processed

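Per the labels' protocols, oligo(dT)-selected mRNA was read as paired 150-bp reads. The deposited values are raw read counts per gene for 12 libraries (31012775 to 48529770 counts). STAR 2.7.0a and hg38 are named in the submitters' processing notes. Per the file headers, the authors counted with featureCounts 2.0.1 and Ensembl release 101, with no paired-end or strand option, so mates were counted singly and multi-mapping reads not at all.

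Of 60671 genes, 42020 (69.3%) had a symbol and 18219 passed filterByExpr. edgeR 4.0.16 (R 4.3.3) fitted all 12 libraries with 1 mean per group, TMM factors and the robust quasi-likelihood F-test (6 residual degrees of freedom, biological coefficient of variation 10.6%), and called genes at a Benjamini-Hochberg adjusted p under 0.05. Differences between inductions were interaction terms. Alternatives were RLE factors, DESeq2 1.42.0, no filter, only the lines compared, a replicate block and leaving out each library.

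The members and the 34 gene lists were chosen with earlier results of these data known. Named genes are SOX9, 12 and 12 ranked without overlap, the 4 and 4 largest folds, 8 and 8 wild-type response genes with the smallest p, up to 4 members per list (the text gives those it describes), 18 fixed genes and the genes called in a contrast with M303, of which 2 are not reported here. Sequences came from GENCODE v29 and RefSeq GRCh38.p14. List symbols without a match were H2AC18, SOD2, TROP2 and TROY.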

Additional observations from a re-analysis of the deposited data

Results flagged for a closer look

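Induction effects that differed between lines by a test of the difference itself (edgeR interaction term, adjusted p under 0.05) are listed with the log2 difference. M303 and GFP induction differed for 1 gene, SOX9, by 1.17. M303 and wild-type SOX9 induction differed for 89 genes. Among the genes named by rank, by the wild-type response or as fixed genes, M303 minus wild type was -3.82 for LYZ, -2.98 for DEFA6, -1.76 for SLC6A14, -1.76 for NEDD9, -1.46 for APCDD1, -1.22 for PRSS23, -1.17 for HMGCS1, -0.83 for CD109, -0.81 for SMOC2 and -0.69 for OLFM4. It was 1.42 for MUC2, 1.07 for GUCY2C, 1.02 for NEURL1, 1.01 for ATOH1, 0.91 for SPDEF, 0.81 for SLC6A20, 0.80 for CREB3L1, 0.77 for GREM1, 0.71 for REG4 and 0.56 for AGR2. The groups of 2 are too small for a check of single outlying libraries.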

How the results depend on the processing

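On M303 induction DESeq2 called 2 genes, no filter on low counts 9, and a fit of only that line 3 (SOX9, HSPG2 and TFF3). The unfiltered calls included SMOC2, APCDD1, DEFA5, SPINK4, TFF3 and HECTD4, and the low-count genes OPRD1 and BPIFB1. GFP induction gave 2 calls by DESeq2 and 4 without the filter. Without the filter M303 minus GFP gave 11 calls and M303 minus wild type 147. Median M303 values of lowered wild-type response genes were -0.0724 by DESeq2 and -0.0705 without the filter. In each case the cause was not tested.

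Leaving out 1 library gave 1 to 2 calls for M303, 0 to 9 for GFP, 231 to 675 for wild-type SOX9, 1 to 12 for M303 minus GFP and 57 to 107 for M303 minus wild type. Response medians, an alternative chosen after seeing the data, were 0.0821 to 0.11 (raised) and -0.18 to -0.0525 (lowered). Values near 0 changed sign: SLC6A14 -0.0936 to 0.0948, NEDD9 -0.0578 to 0.12, GREM1 -0.12 to 0.0107, SLC6A20 -0.10 to 0.0282, MUC2 -0.31 to 0.0376, CDX2 -0.12 to 0.0101, ASCL2 -0.0659 to 0.0241, MYC -0.0311 to 0.0659 and SOX4 -0.0793 to 0.10. Over 161 named genes 2706 alternative values kept direction and side, 16 changed sign and 7 (SMOC2, APCDD1, DEFA5 and SPINK4) passed the threshold. Of 33 list medians 540 values moved within the spread and 21 beyond it.

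With the replicate block M303 induction gave 1 call, GFP 0, wild-type SOX9 446, M303 minus GFP 1 and M303 minus wild type 84. The numbers did not pair the libraries: same-numbered deviations correlated at -0.09 (M303), -0.09 (GFP) and 0.09 (SOX9). Mates counted singly make counting error larger than the totals imply, so genes near 1 CPM rest on few fragments.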
